A study of Mus musculus with 16 samples.

Results

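Efna5, Prrx2, Ednra, Kif26b, Serpina3n, Unc5b, Cyp1b1, Dlg5 and Phldb2 are 9 genes, of 24278 tested, whose RNA was read mainly in YFP- macrophages of mouse pancreatic tumors. They were chosen by their array signals: their probes were above background on the tumor YFP- arrays and near or below it on the tumor YFP+ arrays. That difference is therefore a description here and carries no test. Each gene was matched by the gene name in the scanner files, and each has 1 probe. The pattern holds as stated for 8 of the 9. Phldb2 was well above background on all 16 arrays, so it was higher in the tumor YFP- samples without being limited to them.

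The study used 16 one-colour Agilent arrays, read in the red channel, with 4 arrays on each of 4 slides. Macrophages were isolated by flow cytometry from pancreatic tumors (5 mice) and from normal pancreas (3 mice), and each mouse number appears with a YFP+ and a YFP- sample, so that each tumor group has 5 arrays and each normal group has 3. The series design names wild-type mice, KPC mice (a genetic model of pancreatic ductal adenocarcinoma, PDAC) and FLT3-CRE/LSL-YFP mice, in which Cre made by cells that express the progenitor receptor Flt3 turns on a lasting YFP reporter. The treatment protocol, which is attached to tumor and normal samples, speaks of implanted tumors. The labels give female C57/B6 mice of 8 to 10 weeks in all 4 groups and record no genotype, so neither the tumor model nor the reporter genotype of a given sample is known. YFP- is a negative gate: it takes in every sorted cell without the reporter, and the gating markers are not given in the sources used here. The number in the sample titles was read as the mouse. The labels do not state this, nor that the samples of a group came from separate animals, so p-values measure the spread between these samples.

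The known roles of the genes differ, and which cells expressed them here was not tested. Efna5, Unc5b and Ednra encode a ligand and receptors through which cells sense their neighbours and soluble factors; Prrx2 is a homeobox transcription factor of embryonic mesenchyme, the loose connective tissue that gives rise to fibroblasts. Kif26b, Dlg5 and Phldb2 work at the cell cortex, in adhesion, polarity and the anchoring of microtubules. Cyp1b1 and Serpina3n encode an enzyme of small-molecule oxidation and a secreted protease inhibitor. Macrophages are phagocytes of blood or embryonic origin, and in pancreatic tumors they lie within a dense stroma made largely by fibroblasts, whose main product is type I collagen, encoded in part by Col1a1.

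The share of spots well above background was 64.9% to 75.4% by array, and 0 spots were saturated. The 75th percentile of the processed signal lay between 2175 and 3409 intensity units, and the values below are log2 signals relative to that percentile of the same array, so that 0 stands for it. A level below 0 is therefore a probe dimmer than the percentile, and probes of different genes are not set against each other. All 12 macrophage markers on the list used here (among them Csf1r, Adgre1 and C1qa) were well above background on all 16 arrays, and 0 of 12 were called between tumor YFP+ and tumor YFP- samples. Their summed signal, with the 75th percentile as 1, spanned 278 to 408 over the tumor YFP- arrays and 294 to 382 over the tumor YFP+ arrays. For normal pancreas it spanned 298 to 556 over YFP- arrays and 334 to 419 over YFP+ arrays.

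"Well above background" is the scanner software's own flag, given for each array. Of the 24278 genes, 0.157% (38 genes) carried it on all 5 tumor YFP- arrays and on 0 of 5 tumor YFP+ arrays, and 8 of the 9 genes are among them. For comparison, 10 genes had the opposite pattern. Adding the 6 normal arrays split the 8. Efna5, Prrx2, Ednra, Kif26b and Serpina3n were flagged on 0 of 6 normal arrays, as were 0.0535% of all genes (13 genes), while Unc5b, Cyp1b1 and Dlg5 were flagged on some of them. The 13 also include Thbs2, Cfi, Osmr and Efna1. With the software's less strict flag (positive and significant) the first pattern held for 34 genes and 7 of the 9, as Kif26b passed on 1 tumor YFP+ array. With no normal array either, it held for 5 genes, of which Efna5 and Prrx2 are 2.

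**Figure D1:**
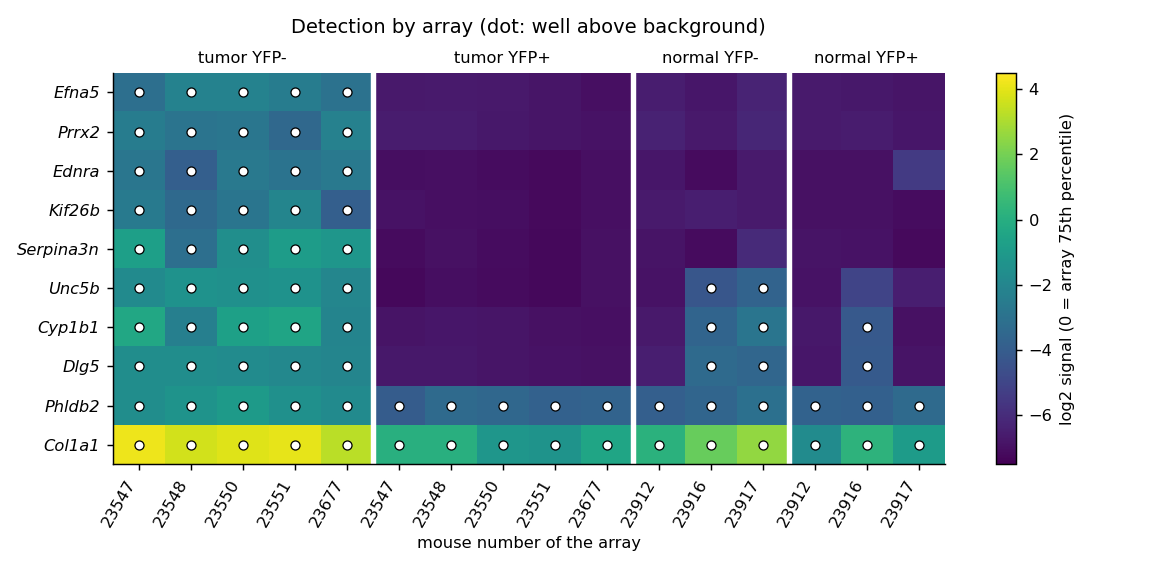
Log2 signal (colour, relative to the 75th percentile of each array) of the 9 genes and Col1a1 on each of the 16 arrays, which are ordered by group and mouse number; a white dot marks a probe well above background. The upper 8 rows carry dots on all 5 tumor YFP- arrays and none on the tumor YFP+ arrays, the normal arrays carry dots for Unc5b, Cyp1b1 and Dlg5 in mice 23916 and 23917, and Phldb2 and Col1a1 carry dots throughout.

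In numbers, every tumor YFP- array lay above every tumor YFP+ array for 9 of 9 genes, a separation that 2.77% of all genes had. The difference between tumor YFP+ and tumor YFP- samples had a median of -4.17 over the 9 genes and of 0.0096 over all genes, in log2. Of all genes, 1.62% were called lower and 0.766% higher in tumor YFP+ samples (limma, adjusted p under 0.05, 394 and 186 genes), and without mouse 23550, 23551 or 23677 the lower calls numbered 261, 275 and 253. Since tumor YFP+ probes were not well above background for 8 genes, their fold is given as a bound: it compares the tumor YFP- mean with the lowest signal that counted as well above background on each tumor YFP+ array (log2 -4.96 to -4.28 over all arrays). These bounds hold for the scanner's own background handling. With another background model (normexp) all 9 differences kept their sign but shrank to between 1.57 and 3.13 log2 units, with a median of -2.15. All 4 slides held both tumor groups, and within them the difference ran from -6.64 to -1.73 over the 9 genes. In these bulk samples fewer cells of a type and less RNA per cell cannot be told apart.

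**Figure D2:**
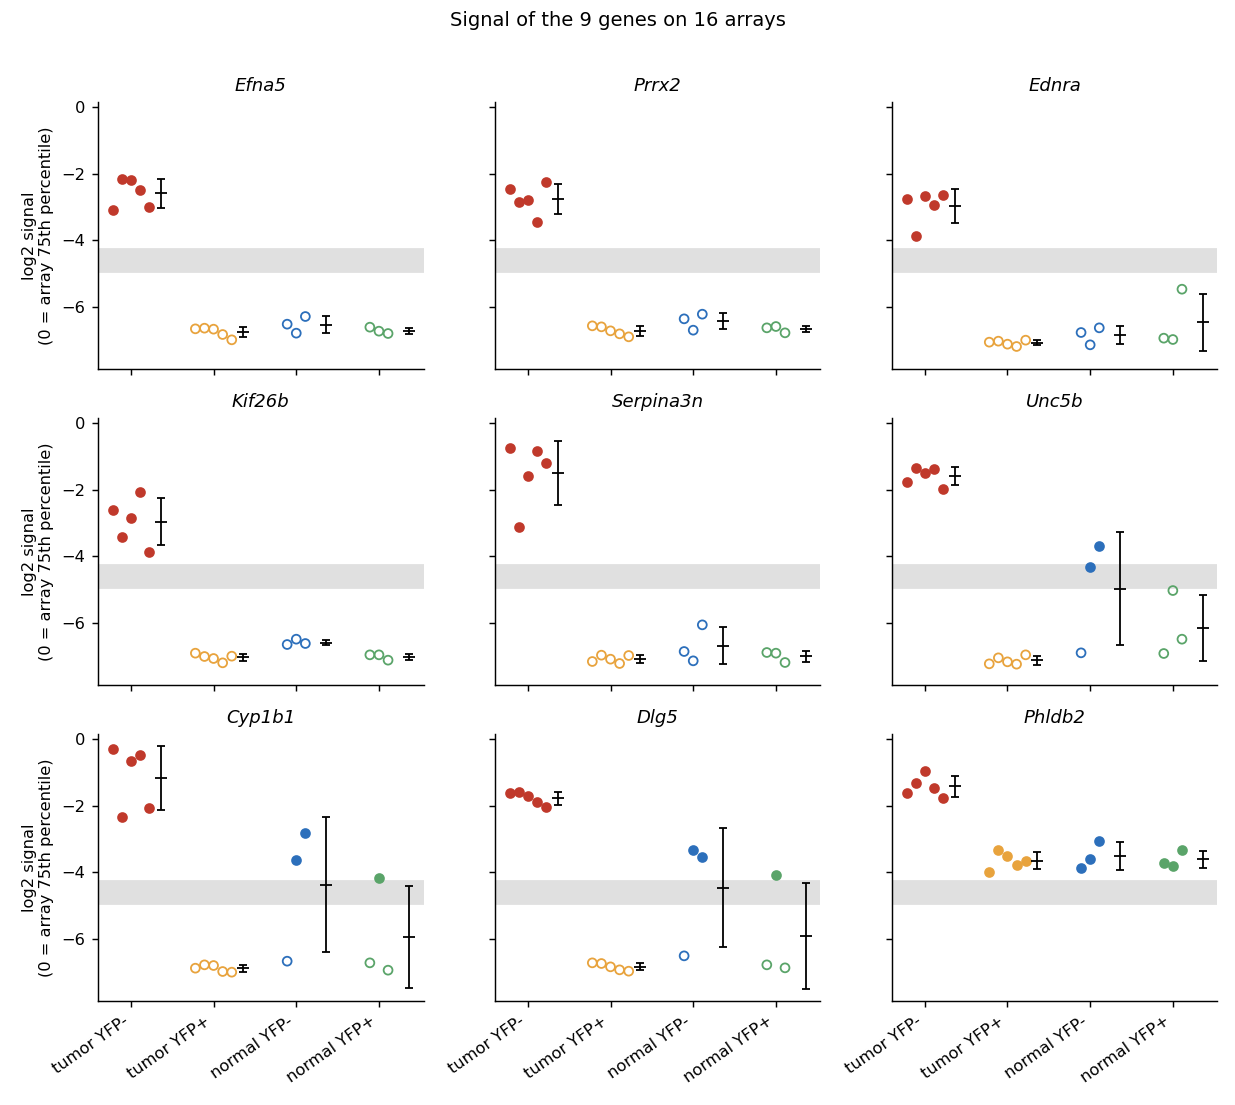
Log2 signal of each gene, relative to the 75th percentile of the array, on the 16 arrays by group (points; filled where well above background, open otherwise), with the group mean ± SD beside them. The grey band spans the lowest signals that counted as well above background (-4.96 to -4.28). All 5 tumor YFP- points are filled in every panel and lie above the tumor YFP+ points, and the normal YFP- points spread widely for Unc5b, Cyp1b1 and Dlg5.

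Efna5 encodes ephrin-A5, a ligand tied to the cell membrane by a lipid anchor that signals to EphA receptors on touching cells, mostly to repel them. Its probe lies on chromosome 17 at chr17:62954177-62954236 (mm9, minus strand). On the tumor YFP- arrays of mice 23547, 23548, 23550, 23551 and 23677 it read -3.10, -2.16, -2.20, -2.48 and -3.00, a mean of -2.59 ± 0.44 (SD, n = 5). The tumor YFP+ arrays read -6.99 to -6.64 and the 6 normal arrays -6.80 to -6.29, all below the flag. Only the tumor YFP- samples thus had a measured level, and the other 3 groups overlapped near the bottom of the scale. The tumor YFP+ minus tumor YFP- difference was -4.17 ± 0.19 (SE), or at least 4.89-fold lower. Against normal YFP- samples the tumor YFP- samples were at least 4.09-fold higher.

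Of the 11 other ephrin-A and EphA genes tested, 2 were lower in tumor YFP+ samples and 0 higher. Efna1, the ligand most often studied in tumors and vessels, fell by 3.99 ± 0.41, at least 4.43-fold. It was well above background on 5 tumor YFP- arrays and on none of the other groups. It thus passed the filter (at least 3 arrays well above background) only through the group where it was high. Its call is therefore a description without a p. The receptor Epha7 fell by 1.35 ± 0.24 (adjusted p = 0.00522, limma). Epha2, a receptor for both ligands, had a difference of -0.80 ± 0.65 (adjusted p = 0.787) and was well above background on all 10 tumor arrays.

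The promoter window of Efna5 is shown because it carries more copies than any of the other 8 windows of GCGTG, the core to which the aryl hydrocarbon receptor binds. The windows run from 250 bases before to 50 after the start of the gene and come from RefSeq (GRCm38.p6), which matched 9 of 9 genes among 32851 promoters. That of Efna5 is chr17:62881268-62881567, minus strand. In the sequences printed here capitals mark GCGTG, or the same letters read on the other strand (CACGC), and TTCNNNGAA, a STAT site. The copies at positions -88 and -84 from the start share 1 base, so the run of capitals is longer there.
Efna5: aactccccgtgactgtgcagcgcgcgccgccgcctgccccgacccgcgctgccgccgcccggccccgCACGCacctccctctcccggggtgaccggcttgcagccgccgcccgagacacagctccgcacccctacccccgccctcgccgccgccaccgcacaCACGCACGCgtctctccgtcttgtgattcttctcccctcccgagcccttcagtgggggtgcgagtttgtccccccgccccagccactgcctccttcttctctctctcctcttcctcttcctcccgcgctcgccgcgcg
GCGTG was present in 5 of the 9 windows (Efna5, Prrx2, Kif26b, Unc5b and Cyp1b1) and in 32.4% of all promoters. GC content was 48.7% to 73.3% over the 9 windows, the highest in Efna5, against a median of 52.7% over all promoters.

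Unc5b encodes a netrin receptor that guides axons and vessel sprouts away from netrin. Its probe lies at chr10:60225398-60225457 (mm9, minus strand). On the tumor YFP- arrays, in the same order of mice, it read -1.76, -1.36, -1.50, -1.39 and -1.99, a mean of -1.60 ± 0.27 (SD, n = 5). In tumor YFP+ samples it read -7.24 to -6.96. The difference was -5.53 ± 0.48 (SE), or at least 9.68-fold lower in tumor YFP+ samples. In normal pancreas the YFP- arrays of mice 23912, 23916 and 23917 read -6.90, -4.31 and -3.70, the last pair well above background. The YFP+ arrays read -6.92, -5.03 and -6.49, with 0 of 3 well above background and 2 positive and significant. The normal groups overlapped, and the tumor YFP- arrays lay above both.

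Among 14 other genes of netrins and their receptors 1 was called lower and 0 higher in tumor YFP+ samples. Neo1, which encodes the receptor neogenin, fell by 2.42 ± 0.58, at least 1.19-fold. It was well above background on 2 tumor YFP- arrays and 0 tumor YFP+ arrays. It passed the filter only with the tumor YFP- arrays counted, so its call is a description without a p. That call held under 5 of 15 alternatives and was lost without mouse 23547, 23550, 23551, 23677 or 23916. Ntn1, the main secreted ligand of Unc5b, was well above background on all 16 arrays with a difference of -0.50 ± 0.67 (adjusted p = 0.889).

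Ednra encodes the endothelin A receptor, a G protein-coupled receptor that makes smooth muscle and pericytes contract when it binds endothelin-1. The probe is at chr8:80186985-80187044 (mm9, minus strand). Tumor YFP- readings were -2.77, -3.86, -2.66, -2.93 and -2.65, a mean of -2.98 ± 0.51 (SD, n = 5). The array of mouse 23548 was lower than the others. Tumor YFP+ readings were -7.19 to -7.00, and the difference was -4.10 ± 0.29 (SE), or at least 3.74-fold lower. The 3 normal YFP- arrays read -7.14 to -6.63 and the normal YFP+ arrays -6.94, -6.98 and -5.47, none of them well above background.

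Of 4 other genes of the endothelin system 0 were called in either direction. Ednrb, the B receptor, was well above background on all 16 arrays, at 0.58 ± 0.76 (SD, n = 5) in tumor YFP- and 0.03 ± 0.57 (n = 5) in tumor YFP+ samples, a difference of -0.55 ± 0.50 (SE, adjusted p = 0.814). Edn1, the gene of endothelin-1, was well above background on 0 of 16 arrays and was not tested.

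Prrx2 is a homeobox gene of limb and craniofacial mesenchyme. Its probe lies at chr2:30736678-30736737 (mm9, plus strand). In tumor YFP- samples it read -2.46, -2.86, -2.79, -3.46 and -2.25, a mean of -2.76 ± 0.46 (SD, n = 5). Tumor YFP+ samples read -6.90 to -6.57 and the normal arrays -6.78 to -6.22, all below the flag. The difference in tumor was -3.96 ± 0.20 (SE), or at least 4.33-fold.

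Of 15 other mesenchymal transcription factor genes 3 were lower in tumor YFP+ samples and 0 higher. Wt1, a factor of mesothelium and the mesenchyme derived from it, fell by 4.12 ± 0.65 (adjusted p = 0.00231) and was well above background on 2 of 5 tumor YFP+ arrays. Prrx1, the close relative of Prrx2, fell by 2.94 ± 0.44, at least 2.41-fold, with 3 of 5 tumor YFP- arrays and no other array well above background. It passed the filter only through those arrays, so its call is a description without a p. Osr1 fell by 1.93 ± 0.42 (adjusted p = 0.0212), and its call held under 10 of 16 alternatives (adjusted p 0.00764 to 0.127); it was lost without mouse 23547, 23550, 23551 or 23677.

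Kif26b is a kinesin-family protein that acts downstream of Wnt5a and its receptor Ror in the movement of mesenchymal cells. The probe is at chr1:180862723-180862782 (mm9, plus strand). Readings of the tumor YFP- samples were -2.61, -3.41, -2.85, -2.06 and -3.88, a mean of -2.96 ± 0.71 (SD, n = 5). The tumor YFP+ arrays read -7.20 to -6.91, and the difference was -4.07 ± 0.26 (SE), or at least 3.77-fold. The normal YFP- arrays read -6.65 to -6.49 and the normal YFP+ arrays -7.12 to -6.96. Those groups did not overlap, but all 6 values were below the flag, where order cannot be read.

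Of 21 other genes of the Wnt5a, Ror and planar polarity list 3 were lower in tumor YFP+ samples and 0 higher. Prickle1 and Vangl1, core planar polarity genes, fell by 3.86 ± 0.46 (adjusted p = 3.62e-04) and by 3.01 ± 0.46. Vangl1 was well above background on 0 of 5 tumor YFP+ arrays, so its fold is a bound, at least 2.48-fold. It passed the filter only with the tumor YFP- arrays counted, so its call is a description without a p. Ror1, a receptor for Wnt5a, fell by 3.14 ± 0.37 (adjusted p = 3.62e-04) and was well above background on 2 of 5 tumor YFP+ arrays. Wnt5a itself was well above background on all 16 arrays with a difference of 0.42 ± 0.52 (adjusted p = 0.875). Ror2 was well above background on 2 arrays and was not tested.

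The window of Kif26b, chr1:178528875-178529174 (GRCm38.p6, plus strand), is shown because it holds both motifs marked here, with GCGTG at positions -166 and -60 from the start and the STAT site at -12.
Kif26b: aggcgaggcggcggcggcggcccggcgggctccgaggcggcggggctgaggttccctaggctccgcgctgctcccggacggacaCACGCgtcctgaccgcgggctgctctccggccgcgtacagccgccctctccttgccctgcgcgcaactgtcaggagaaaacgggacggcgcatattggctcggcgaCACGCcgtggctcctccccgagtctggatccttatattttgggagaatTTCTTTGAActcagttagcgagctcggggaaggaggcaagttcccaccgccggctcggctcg
The STAT site was found in 2 of the 9 windows, those of Kif26b and Dlg5, and in 8.30% of all promoters. Neither match shows that a factor binds.

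**Figure D3:**
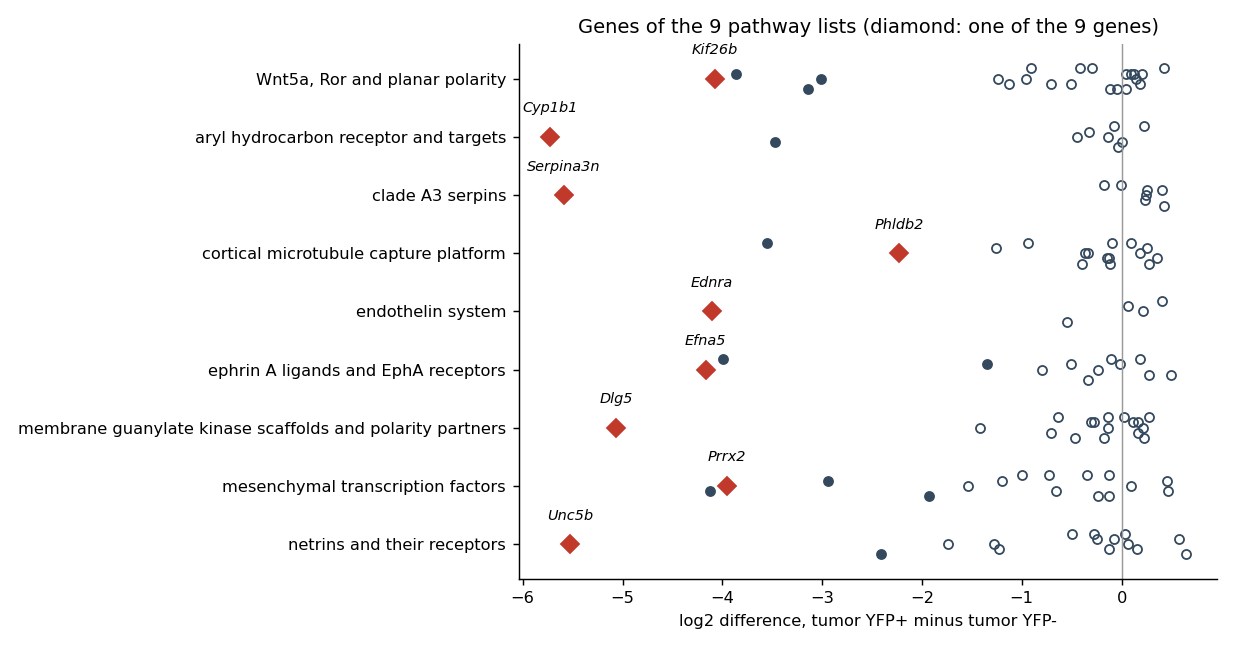
Log2 difference between tumor YFP+ and tumor YFP- samples for each tested gene of the 9 pathway lists. Red diamonds are the 9 genes, and dots are the other genes (filled where called at an adjusted p under 0.05, open otherwise). All filled dots lie left of 0, and most genes of each list lie near 0 while the diamonds lie between -5.72 and -2.23. Among the filled dots, Efna1, Prrx1, Vangl1, Neo1, Aldh3a1 and Kank1 passed the filter only with the tumor YFP- arrays counted. Their calls, and the side on which they lie, are descriptions without a p.

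Cyp1b1 is a cytochrome P450 that oxidises steroids and polycyclic hydrocarbons, and a textbook target of the aryl hydrocarbon receptor. Its probe lies at chr17:80106547-80106606 (mm9, minus strand). On the tumor YFP- arrays it read -0.30, -2.33, -0.67, -0.47 and -2.07, a mean of -1.17 ± 0.96 (SD, n = 5). The arrays of mice 23548 and 23677 lay apart below the other 3. The tumor YFP+ arrays read -7.00 to -6.78, and the difference was -5.72 ± 0.69 (SE), or at least 13.1-fold. The normal YFP- arrays of mice 23912, 23916 and 23917 read -6.67, -3.63 and -2.83, and the normal YFP+ arrays -6.72, -4.17 and -6.94. Mouse 23916 was thus above background in both normal populations, 23917 in YFP- alone, and 23912 in neither.

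Of 8 other genes of the aryl hydrocarbon receptor list 1 was lower in tumor YFP+ samples and 0 higher. Aldh3a1, an aldehyde dehydrogenase and receptor target, fell by 3.47 ± 0.71, with 2 of 5 tumor YFP+ arrays well above background. It passed the filter only with the tumor YFP- arrays counted, so its call is a description without a p. That call held under 12 of 16 alternatives and was lost without mouse 23547, 23548 or 23677. The receptor gene Ahr read 0.45 ± 0.31 (SD, n = 5) in tumor YFP- and 0.68 ± 0.48 (n = 5) in tumor YFP+ samples, a difference of 0.23 ± 0.28 (SE, adjusted p = 0.874). Cyp1a1, its most used target gene, was well above background on 0 arrays.

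The window of Cyp1b1, chr17:79715012-79715311 (GRCm38.p6, minus strand), is shown as that of the known receptor target. It holds 1 copy of GCGTG, on the other strand, at position -76 from the start and a few bases from a GC box (GGGCGG, on either strand), with GC content 58.3%.
Cyp1b1: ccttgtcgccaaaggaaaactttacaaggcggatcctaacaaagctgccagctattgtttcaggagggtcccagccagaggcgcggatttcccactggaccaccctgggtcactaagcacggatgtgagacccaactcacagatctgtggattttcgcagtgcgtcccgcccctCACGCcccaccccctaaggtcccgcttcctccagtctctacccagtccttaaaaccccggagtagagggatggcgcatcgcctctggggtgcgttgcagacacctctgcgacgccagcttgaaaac
GC boxes were found in 7 of the 9 windows, all but those of Ednra and Serpina3n, and in 35.7% of all promoters. An AP-1 site, written TGACTCA, was found in 0 of the 9 windows and in 5.20% of all promoters. A TEAD site, written GGAATG, was in 0 windows and 14.7% of promoters. An E-box, written CAGCTG, and a TATA box, written TATAAA, were in 0 windows and in 16.3% and 13.6% of promoters. Both strands were searched for each.

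Serpina3n is a secreted inhibitor of serine proteases such as granzyme B and neutrophil elastase, induced in acute inflammation. The probe maps to chr12:105651918-105651977 (mm9, plus strand). Tumor YFP- samples gave -0.75, -3.12, -1.58, -0.85 and -1.19, a mean of -1.50 ± 0.96 (SD, n = 5). Mouse 23548 was again the lowest, as for Ednra and Cyp1b1. All tumor YFP+ arrays read -7.22 to -6.97 and the 6 normal arrays -7.19 to -6.06, none above the flag. The difference in tumor was -5.59 ± 0.36 (SE), or at least 10.4-fold. Serpina3n belongs to a cluster of near copies, so a probe could pick up a relative. Of 7 other clade A3 genes tested 0 were called in either direction, and Serpina3g, a relative expressed in activated macrophages, had a difference of 0.24 ± 0.72 (adjusted p = 0.956). The window of Serpina3n, chr12:104406458-104406757 (GRCm38.p6, plus strand), is shown as the opposite case: it holds none of the 7 motifs searched and had the lowest GC content of the 9, at 48.7%.
Serpina3n: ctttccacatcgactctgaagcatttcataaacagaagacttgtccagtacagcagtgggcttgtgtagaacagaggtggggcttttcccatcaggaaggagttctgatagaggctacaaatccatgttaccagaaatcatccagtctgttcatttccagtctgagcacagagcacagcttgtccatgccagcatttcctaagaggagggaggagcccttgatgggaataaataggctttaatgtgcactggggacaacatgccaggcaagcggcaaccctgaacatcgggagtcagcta
The window of Ednra, with 54.7% GC, held none of them either.

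Dlg5 is a scaffold of the membrane guanylate kinase family that organises cell junctions and polarity. It was read by a probe at chr14:24953194-24953253 (mm9, minus strand). Its 5 tumor YFP- readings were -1.61, -1.60, -1.72, -1.89 and -2.05, a mean of -1.77 ± 0.19 (SD, n = 5). It had the narrowest range of the 9 genes over those arrays, 0.45 log2 units, where Serpina3n had 2.37. The tumor YFP+ arrays read -6.97 to -6.72, and the difference was -5.06 ± 0.57 (SE), or at least 8.59-fold. The normal YFP- arrays read -6.51, -3.34 and -3.53 and the normal YFP+ arrays -6.78, -4.09 and -6.87, with the same mice above background as for Cyp1b1. Of 16 other scaffold and polarity genes 0 were called, and Dlg1, the best known of the family, had a difference of 0.17 ± 0.17 (adjusted p = 0.836).

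Phldb2 (LL5 beta) anchors microtubule ends at the cell cortex near adhesions. It was read by a probe at chr16:45746393-45746452 (mm9, minus strand). Tumor YFP- samples read -1.61, -1.33, -0.95, -1.48 and -1.77, a mean of -1.43 ± 0.31 (SD, n = 5). On the tumor YFP+ arrays it read -3.99, -3.33, -3.50, -3.77 and -3.67, a mean of -3.65 ± 0.25 (n = 5). The normal YFP- arrays read -3.88, -3.60 and -3.06 and the normal YFP+ arrays -3.71, -3.81 and -3.33. The last 3 groups overlapped, and the tumor YFP- arrays lay above them all. Since all groups were measured, the fold is not a bound: the difference in tumor was -2.23 ± 0.20 (SE), 4.68-fold. Of 15 other genes of the cortical microtubule platform 1 was lower and 0 higher in tumor YFP+ samples. Kank1, an adaptor that ties the platform to adhesions, fell by 3.56 ± 0.63, at least 3.87-fold. It passed the filter only with the tumor YFP- arrays counted, so its call is a description without a p. The microtubule protein gene Clasp2, whose product binds Phldb2, had a difference of 0.26 ± 0.21 (adjusted p = 0.778).

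The rule did not use the normal samples, so the comparison of normal YFP+ with normal YFP- samples can be tested where it was measured. Efna5, Prrx2, Ednra, Kif26b and Serpina3n were well above background on none of the 6 normal arrays and passed the filter only through the tumor YFP- arrays. The less strict flag passed for Kif26b on 2 normal YFP- arrays, Serpina3n on 1 normal YFP- array and Ednra on 1 normal YFP+ array. The test thus sets values that missed the stricter flag against each other and says nothing about these 5. Unc5b was well above background on 2 normal arrays, too few for the filter. It too was kept only through the tumor YFP- arrays, so its difference is given without a p. Of the other 3, Cyp1b1, Dlg5 and Phldb2, 0 were called (limma, adjusted p 0.705 to 0.933, 0 of 3 at an unadjusted p under 0.05). Among all genes 0.0206% were called (5 genes), and 1854 had an unadjusted p under 0.05. The largest differences were those of Cyp1b1 at -1.57 ± 0.89 (SE, adjusted p = 0.753), Dlg5 at -1.45 ± 0.74 (adjusted p = 0.705) and Unc5b at -1.18 ± 0.62. For each, the YFP+ array lay below the YFP- array of the same number for 3 of 3 numbers, though 23912 was below background in both populations. The labels do not state that equal numbers mean the same mouse. These differences of Cyp1b1, Dlg5 and Unc5b rest on mouse 23917, without which they were -0.30, -0.51 and -0.37. Phldb2, measured on all of them, had a difference of -0.10 ± 0.26 (adjusted p = 0.933). Every normal YFP- array lay above every normal YFP+ array for 1 of the 9 genes, Kif26b, and for 6.84% of all genes. None of those 6 values of Kif26b was well above background. With 3 mice in each group, a p that misses the threshold does not show that the populations were alike. Over 16 alternatives the lowest adjusted p was 0.0576 for Dlg5 and 0.109 for Cyp1b1 (both with array weights) and 0.904 for Phldb2. The count over all genes moved between 0 and 1165. Slides 2 and 3 held both normal groups, and within them the difference of Cyp1b1 was between -3.89 and -0.28, that of Dlg5 between -3.25 and -0.36 and that of Unc5b between -3.22 and 0.41.

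The tumor YFP- arrays also stood apart from normal YFP- arrays. Every one of them lay above every normal YFP- array for 9 of 9 genes, as for 9.78% of all genes. Because the tumor YFP- arrays entered the choice of the genes, this too is given without a test. The differences were 5.19 ± 0.42 (SE) for Serpina3n and 3.95 ± 0.22 for Efna5, then 3.87 ± 0.33 for Ednra, 3.67 ± 0.23 for Prrx2 and 3.63 ± 0.30 for Kif26b. As the normal YFP- samples were not well above background for these 5, the bounds are at least 8.72, 4.09, 3.13, 3.62 and 3.16-fold. These bounds hold for the scanner's own background handling. With normexp the differences shrank to 2.63, 1.84, 1.62, 2.25 and 1.32 log2 units in the same order. For all but Prrx2 that is a smaller fold than the bound. Unc5b, Cyp1b1 and Dlg5, each well above background on 2 of 3 normal YFP- arrays, differed by 3.37 ± 0.56, 3.21 ± 0.79 and 2.69 ± 0.66. Without mouse 23912 these fell to 2.41, 2.06 and 1.66. Phldb2 differed by 2.09 ± 0.23, 4.25-fold. Between tumor YFP+ and normal YFP+ samples the 9 differences lay between -0.98 (Unc5b) and -0.02 (Kif26b), with a median of -0.09 where all genes had -0.04. Apart from Phldb2 these compare tumor YFP+ values that were not well above background, so they are not read as differences in level. Tumor YFP- samples were thus the highest group in all 9 genes, and among the other 3 groups an order can be read only where values passed background. For Unc5b, Cyp1b1 and Dlg5 the normal YFP- samples had the next highest mean, with SDs of 1.70, 2.02 and 1.77 (n = 3) that exceeded their difference from normal YFP+ samples.

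Col1a1, the collagen gene against which the 9 were set, was well above background on all 16 arrays. It read 4.20, 3.66, 3.91, 4.07 and 3.24 on the tumor YFP- arrays and 0.05, 0.09, -1.21, -1.32 and -0.45 on the tumor YFP+ arrays. The normal YFP- arrays read 0.15, 1.70 and 2.56 and the normal YFP+ arrays -1.69, 0.28 and -0.91. It was lower in tumor YFP+ than in tumor YFP- samples by 4.38 ± 0.46 (SE, adjusted p = 1.39e-04, 20.9-fold), and higher in tumor YFP- than in normal YFP- samples by 2.34 ± 0.53 (adjusted p = 0.00787). In normal pancreas its difference was -2.24 ± 0.60 (adjusted p = 0.195). The 3 normal arrays on which Cyp1b1 and Dlg5 passed background were those with the highest Col1a1 of the 6, at 2.56, 1.70 and 0.28. The tumor YFP+ arrays cannot be set beside these, since the genes were chosen for being near or below background there.

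Over the 5 tumor YFP- arrays, Pearson's r with Col1a1 was 0.909 for Kif26b and 0.870 for Cyp1b1, and it stayed between 0.803 and 0.987 and between 0.820 and 0.995 when each array was left out in turn. It was 0.575 for Dlg5, 0.450 for Unc5b, 0.363 for Serpina3n and 0.296 for Phldb2, then 0.0994 for Ednra, 0.0499 for Efna5 and -0.488 for Prrx2. Of these 7, Serpina3n kept its sign with any array left out (0.157 to 0.972), and the other 6 changed sign. Efna5, for example, ranged from -0.857 without mouse 23677, the array with the lowest Col1a1, to 0.665 without mouse 23547, the array with the highest. The median of the 9 was 0.363, and 0.0844 without mouse 23677. Over 18692 genes well above background on these arrays the median r was 0.0226, and the middle 90% ran from -0.841 to 0.837. Values this wide are common over 5 arrays, whose Col1a1 spanned only 0.95 log2 units, so these are descriptions with no test. Genes with a higher r made up 2.08% of all for Kif26b and 3.54% for Cyp1b1.

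**Figure D4:**
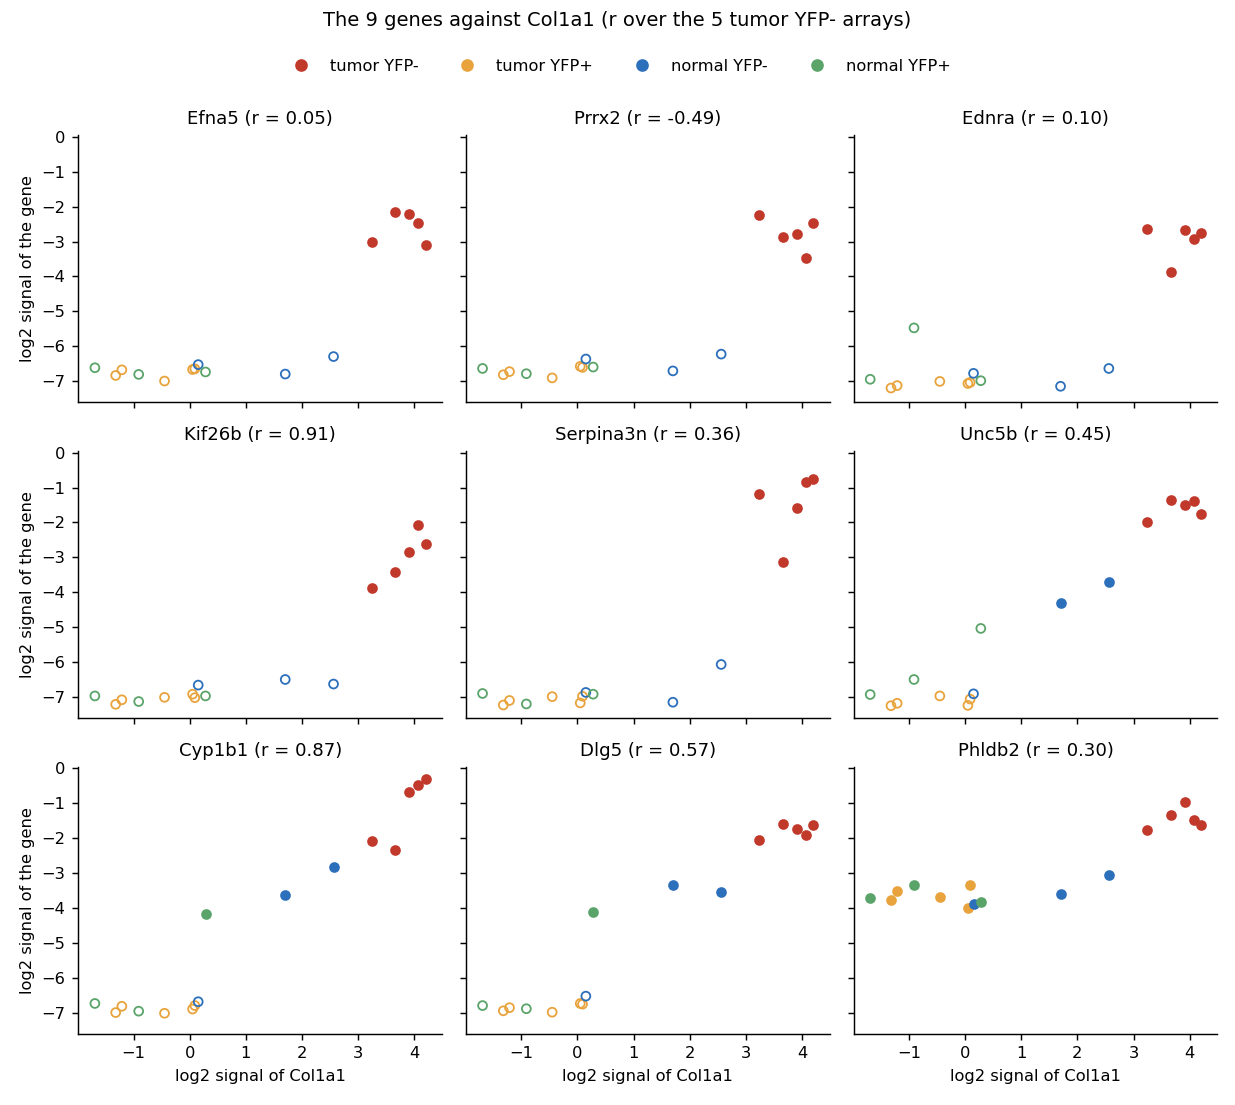
Log2 signal of each gene (vertical) against that of Col1a1 (horizontal), both relative to the 75th percentile of the array, on the 16 arrays coloured by group; filled points are well above background for the gene, and r is over the 5 tumor YFP- arrays. Kif26b and Cyp1b1 follow Col1a1 among the red points, Efna5 and Prrx2 do not, and Unc5b, Cyp1b1 and Dlg5 have blue points between the red ones and the floor.

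The 9 genes did not share the same order of tumor YFP- mice. Of their 36 pairs 21 had a positive r over the 5 arrays, with a median of 0.147 and a range from -0.848 (Prrx2 and Unc5b) to 0.867 (Kif26b and Cyp1b1). Pairs of other genes were not examined, and r spreads widely over 5 arrays. Neither shared variation nor its lack can therefore be read from these values. Ednra and Serpina3n, both lowest in mouse 23548, had r = 0.865. Efna5 and Unc5b, both highest in that mouse, had r = 0.861. Mouse 23677 was lowest for Kif26b, Unc5b, Dlg5, Phldb2 and Col1a1 and highest for Prrx2 and Ednra.

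Markers of other cell types differed between the tumor populations along with these genes. Of 14 fibroblast markers tested 10 were lower in tumor YFP+ samples (median -3.06). Their summed signal was 69.2 to 110 on tumor YFP- arrays and 8.41 to 14.7 on tumor YFP+ arrays, and Lum and Pdgfra were well above background on no tumor YFP+ array. It was 8.07, 41.1 and 75.5 in the normal YFP- samples of mice 23912, 23916 and 23917, and 12.1 to 19.6 in normal YFP+ samples. Mice 23916 and 23917 are those whose normal YFP- arrays had Unc5b, Cyp1b1 and Dlg5 above background. Efna5, Prrx2, Ednra, Kif26b and Serpina3n were not well above background on the same arrays. In normal YFP- samples the macrophage sum was also higher in mice 23916 and 23917, at 486 and 556 against 298 in 23912. The summed ductal markers had the same order of mice. The mast cell sum was instead highest in 23912, and the pericyte and smooth muscle sum was lowest in 23916. Cyp1b1 and Dlg5 were also well above background on the normal YFP+ array of mouse 23916, where the fibroblast sum was 19.6. Whether any of the named genes follows the fibroblast sum or another sum was not tested.

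Of the ductal and epithelial markers 6 of 12 were lower in tumor YFP+ samples, of the mast cell markers 5 of 7, of the pericyte and smooth muscle markers 4 of 13, of the acinar markers 3 of 9 and of the mesothelial markers 1 of 3. The ductal sum was 18.3 to 30.9 in tumor YFP- against 4.96 to 7.11 in tumor YFP+ samples, and the mast cell sum was 9.06 to 51.6 against 2.12 to 5.87. The brightest ductal markers in tumor YFP- samples were Krt18, Krt19 and Krt8, at a mean log2 of 2.97, 2.32 and 1.67. Epcam (0.30, adjusted p = 0.848, limma) and Cdh1 (0.46, adjusted p = 0.626) were not called, and they alone of that list had differences above 0. Both were well above background on all tumor arrays. In the normal YFP- and YFP+ samples the ductal sum was 10.4 to 26.5 and 6.64 to 9.39, and the mast cell sum was 1.34 to 4.72 and 1.13 to 2.30. The mesothelial sum was 2.32 to 5.04 against 0.541 to 0.773 in the tumor groups and 0.589 to 1.11 against 0.396 to 0.774 in the normal ones, with Upk3b on no tumor YFP+ array. The 4 pericyte and smooth muscle markers called were Pdgfrb (-4.66), Rgs5 (-3.04, on no tumor YFP+ array), Acta2 (-2.97) and Notch3 (-1.59), as log2 differences. Of the uncalled markers of that list, Tagln (0.52), Myh11 (0.31) and Higd1b (0.11) lay above 0. The rest lay below it, from Des (-2.36) to Mcam (-0.26). The summed level of that list does not show the 4 called markers. It overlapped, at 96.9 to 125 and 82.4 to 103 in the tumor groups. The brightest gene of the list was Mcam, at a mean log2 of 6.72 and 6.45 (difference -0.26, adjusted p = 0.639, limma). Of the 7 neutrophil markers 0 were called one by one. Their sum did not overlap, at 44.3 to 56.3 in tumor YFP- against 34.0 to 41.0 in tumor YFP+ samples, with 31.5 to 36.7 and 28.6 to 35.6 in normal YFP- and YFP+ samples. That sum leans on its brightest gene, Csf3r, at a mean log2 of 4.93 and 4.68 in the tumor groups (difference -0.25, adjusted p = 0.490, limma). None of the 10 endothelial, 7 T and NK cell or 5 Schwann and neural markers was called, and 3 of 8 B and plasma cell markers were higher in tumor YFP+ samples. Over all genes 1.62% were called lower and 0.766% higher. Among the called markers, Pdgfra, Rgs5 and the mast cell marker Fcer1a passed the filter only with the tumor YFP- arrays counted. The part of such cells in the values of the 9 genes was not tested.

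**Figure D5:**
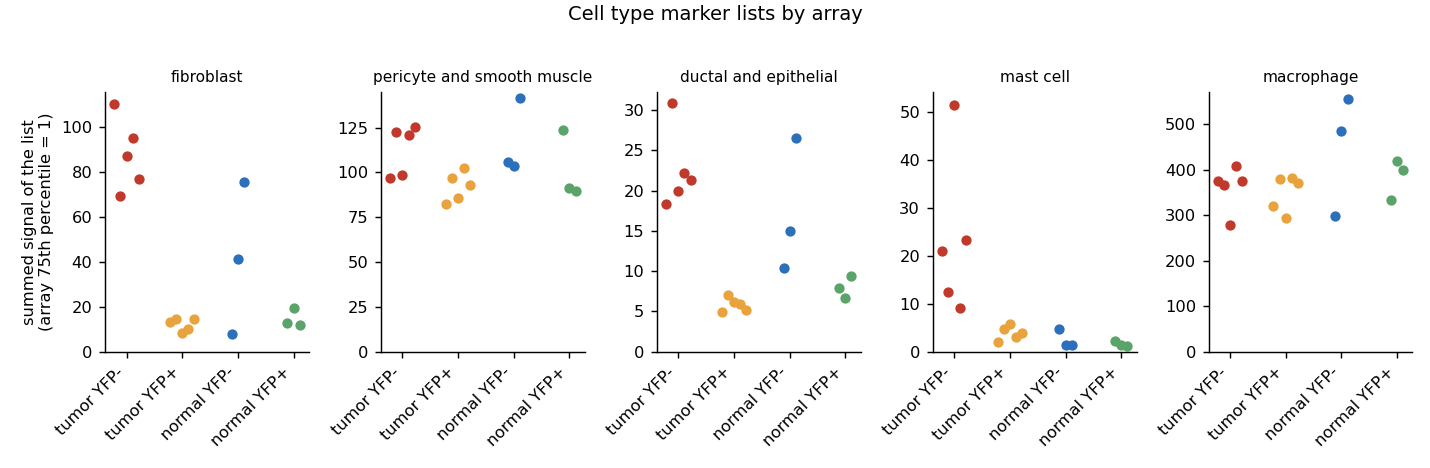
Summed signal of 5 marker lists (75th percentile of the array as 1, axes from 0) on each array, by group. Fibroblast, ductal and mast cell sums of the tumor YFP- arrays lie above those of the tumor YFP+ arrays, the macrophage sums overlap, and the normal YFP- arrays span a fibroblast sum of 8.07 to 75.5.

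Over the 16 arrays, the genes whose pattern was most like the median of the 9 were ranked among 18684 other genes well above background on all tumor YFP- arrays. The leading 10 included Thbs2 (r = 0.984), Cfi (0.965), Osmr (0.956), Ccn2 (0.953), Dkk3 (0.943), Rbp4 (0.935), Efna1 (0.935) and Lgals4 (0.929). The 16 points fall into 4 groups, so the gap between tumor YFP- samples and the rest enters every r. Thbs2, a matrix glycoprotein gene, had a mean of -2.82 ± 0.52 (SD, n = 5) in tumor YFP- and -6.99 ± 0.13 (n = 5) in tumor YFP+ samples. Ccn2, a matricellular growth factor gene, was well above background in all 4 groups, at -0.73 ± 0.10 and -3.21 ± 0.22 in the YFP- and YFP+ samples of tumors, and -2.39 ± 0.38 and -3.53 ± 0.27 in those of normal pancreas (n = 3 each). Dkk3 and Rbp4, both well above background on 1 of 5 tumor YFP+ arrays, lie just outside the detection pattern that 8 of the 9 genes had on the tumor arrays. Among the 9 themselves, r with their own median ran from 0.890 for Dlg5 to 0.988 for Prrx2.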

How the data were processed

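RNA of 16 sorted samples was amplified, labelled with Cy5 and hybridised to Agilent mouse arrays, per the labels' protocols. Per the file headers, the deposited scanner files hold red-channel intensity, and the processed signal used here is background subtracted by Agilent Feature Extraction (11.5.1.1 per the submitters' processing notes). The authors' deposited value table is on a log2 scale and served as an alternative.

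Control spots and outlier flags were left out. The log2 processed signal was centred on the 75th percentile of each array, probes well above background on at least 3 arrays were kept (30566 of 39429), and the brightest complete probe stood for a gene. Groups came from the labels, and a model of 4 group means on 16 arrays was fitted with limma (3.58.1 in R 4.3.3) with Benjamini-Hochberg adjustment over 24278 genes, two-sided, threshold 0.05. The script was tested on simulated data. Members and gene lists were chosen with earlier results of these data known, and the list of genes to name was every member, the listed partners, up to 4 called genes a list and the 10 most alike in pattern, some of which are not reported here. The lists hold 9 pathways and 12 cell types. Alternatives were normexp (offset 50), quantile normalization, the deposited values, other filters, slide or mouse number as a block, array weights and leaving out each mouse. The number of arrays limits the precision, with a median standard error of 0.27 log2 units between the tumor populations and 0.35 between the normal ones. Whether a probe lies in an exon or UTR was not analysed here.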

Additional observations from a re-analysis of the deposited data

Results flagged for a closer look

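On the tumor YFP- arrays, Ednra read -3.86 in mouse 23548, away from the other 4 mice, which read -2.93 to -2.65; the gap to the nearest of them was 0.769 of the whole range. It was the 1 value to stand apart in this way among 20 groups of values examined (the 9 genes and Col1a1 in each tumor population), and chance gives about 1 in 20. Without that mouse the difference between tumor YFP+ and tumor YFP- samples was -4.34 for Ednra.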

How the results depend on the processing

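Over 16 alternatives the 9 genes kept the sign of their difference between the tumor populations and between tumor YFP- and normal YFP- samples. Between the normal populations 4 of 9 kept it. Of those that turned, only Phldb2 was well above background on any of the 6 normal arrays. Those that turned were Efna5 (0.0622 with quantile normalization and 0.0645 with the deposited values), Prrx2 (0.0293 and 0.0307), Phldb2 (0.19 and 0.19), Ednra (-0.0028 to 0.66 as each mouse was left out) and Serpina3n (-0.58 to 0.10). The median of all genes in that contrast was -0.10 and moved to -0.02 under quantile normalization; between tumor and normal YFP- samples it moved from -0.16 to 0.06 with normexp, and between the tumor populations from 0.0096 to -0.12.

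Calls between the normal populations (5, of which 2 higher in YFP+ samples) numbered 0 with normexp (0 also passed the threshold with the replicate block), 16 with quantile normalization (13 higher), 15 with the deposited values (12 higher), 10 with no filter, 2 with slide as a block and 1165 with array weights. They ranged from 0 (without mouse 23548) to 222 (without mouse 23912) as each mouse was left out. Calls between the tumor populations (580) ranged from 357 (without 23550) to 653 as each mouse was left out, and were 805 with normexp and 693 with array weights. Calls between tumor and normal YFP- samples (3829) ranged from 2225 (without 23916) to 4572 over the same omissions and were 9225 with array weights. Calls between tumor and normal YFP+ samples (2936) likewise ranged from 1901 (without 23917) to 2594 and were 4467 with array weights. The cause was not tested.

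The deviations of samples of the same mouse number correlated at r = 0.314, 0.224, 0.0566, -0.188 and -0.290 in tumor mice and 0.275, 0.135 and -0.0156 in the others. The main model did not pair them. Such correlations cannot show whether equal numbers mean the same mouse. With the replicate block the tumor contrast had 599 calls and the normal contrast 0, and Aldh3a1 and Neo1 lost their calls. Between 14.6% and 24.1% of spots on an array lay at a surrogate value, where differences cannot be read.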
